A study of Schizosaccharomyces pombe with 8 samples.

Results

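The core environmental stress response of the fission yeast Schizosaccharomyces pombe is described here through 9 of its genes: hsp16 (SPBC3E7.02c), hsp9 (SPAP8A3.04c), ctt1 (SPCC757.07c), gpx1 (SPBC32F12.03c), gpd1 (SPBC215.05), tps1 (SPAC328.03), ntp1 (SPBC660.07), cta3 (SPBC839.06) and zym1 (SPAC22H10.13). The members were taken by gene ID from a list drawn up with earlier results of these data known, and all 9 were found among the 7000 IDs of the count table. All 9 also passed the filter on low counts, which left 6243 genes.

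The core response is the group of genes that fission yeast turns on under very different stresses, such as heat, salt, peroxide and metals. A cascade of kinases ends in the MAP kinase Sty1, which phosphorylates the bZIP transcription factor Atf1, and Atf1 acts with its partner Pcr1 at many of these genes. Other factors add specificity: Pap1 and Prr1 act under oxidative stress, Hsf1 under heat and Rst2 when glucose is low. The members cover distinct tasks. hsp16 and hsp9 are small stress proteins. Others remove peroxides (ctt1, gpx1), make the osmolyte glycerol (gpd1) or turn over the protective sugar trehalose (tps1, ntp1). cta3 pumps cations and zym1 binds metal.

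RNA was profiled in 4 strains with 2 libraries each, in cells grown to mid-log phase in the rich medium YES with no stress applied. All strains were h- and carried Rpb3-3HA::hphMX6, an epitope tag on an RNA polymerase II subunit. WT had no change at rpb1; the others carried rpb1 S2A::kanMX6, rpb1 S7A::kanMX6 or rpb1 Y1F::kanMX6, in which the repeated C-terminal domain (CTD) of the largest polymerase subunit has serine 2 or serine 7 replaced by alanine, or tyrosine 1 by phenylalanine. The study asked what phosphorylation of serine 2 does. Each genotype was 1 strain, and WT lacked the kanMX6 marker at rpb1, so the residue change, the marker and strain background cannot be told apart. Whether the libraries of one strain were independent cultures is not stated. The p-values therefore reflect the spread among these libraries alone, which may be technical.

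The libraries held 13391705 to 23081870 counts, and replicates of each strain differed by more than counting noise. Levels below are CPM, counts scaled to library size with TMM factors, and are compared between strains and not between genes because CPM is not corrected for gene length. Changes are log2 fold changes ± SE, called at a Benjamini-Hochberg adjusted p under 0.05 in edgeR's quasi-likelihood test over all 6243 genes. The mutated gene rpb1 stood at 720 and 691 CPM in WT and was lower in each mutant, by −0.875 ± 0.044 in S2A, −0.885 ± 0.044 in S7A and −0.65 ± 0.044 in Y1F.

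These 9 core stress genes were broadly higher in S7A, partly higher in S2A, and moved in both directions in Y1F. Their list was drawn up with earlier results of these data known, so the counts below only describe these genes. In S7A all 9 members were called higher than WT, against 23.1% of all genes called higher, 24.3% lower and 47.4% either way. In S2A 6 members were higher, 0 lower and 3 not called, against 28.8% higher, 26.6% lower and 55.4% called either way. In Y1F 4 were higher, 2 lower and 3 not called, against 17.6% higher, 17.4% lower and 35.0% called either way. The median change of the members was 0.86 in S7A, 0.63 in S2A and 0.08 in Y1F, beside −0.01, 0.01 and 0.01 over all genes tested. These 3 comparisons share the same WT libraries.

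**Figure D1:**
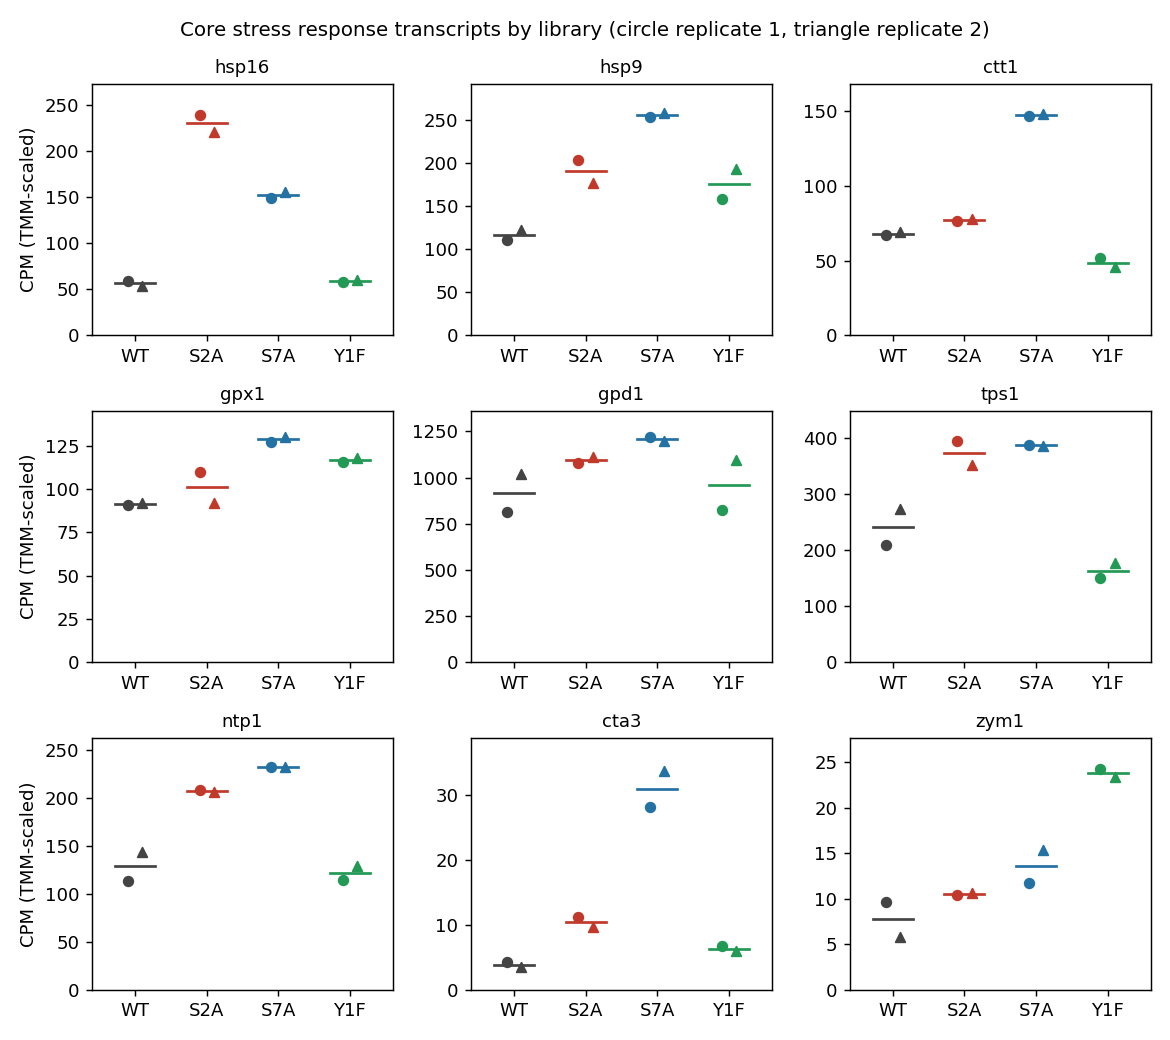
Level of each of the 9 genes in every library, in TMM-scaled CPM on linear axes that start at 0; circles are replicate 1, triangles replicate 2 and bars the mean of the 2 libraries of a strain. S7A had the highest mean for 7 of the 9 genes, S2A for hsp16 and Y1F for zym1. Of those 7, S7A was called above the next strain for hsp9, ctt1 and cta3 only.

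S7A had the highest mean of the 4 strains for 7 members, S2A for hsp16 and Y1F for zym1. Among those 7, S7A was called above the next strain for hsp9, ctt1 and cta3. It was not called above the next strain for gpx1, gpd1, tps1 and ntp1. WT had the lowest mean for 6 members and Y1F for the other 3, which were ctt1, tps1 and ntp1. The lowest strain was called below the next for hsp9, ctt1, tps1 and cta3, and not for the other members. Together the 9 genes took 0.144% and 0.177% of all counts in the WT libraries, 0.239% and 0.225% in S2A, 0.254% and 0.249% in S7A, and 0.153% and 0.189% in Y1F. gpd1 was the largest part of these sums, with 12409 of 22560 counts in WT replicate 1 and 20313 of 42627 in S7A replicate 1. Changes of at least 2-fold were fewer: 4 members in S7A (2.92% of all genes were called higher by that much), 2 in S2A (7.69%) and 1 in Y1F (1.55%).

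**Figure D2:**
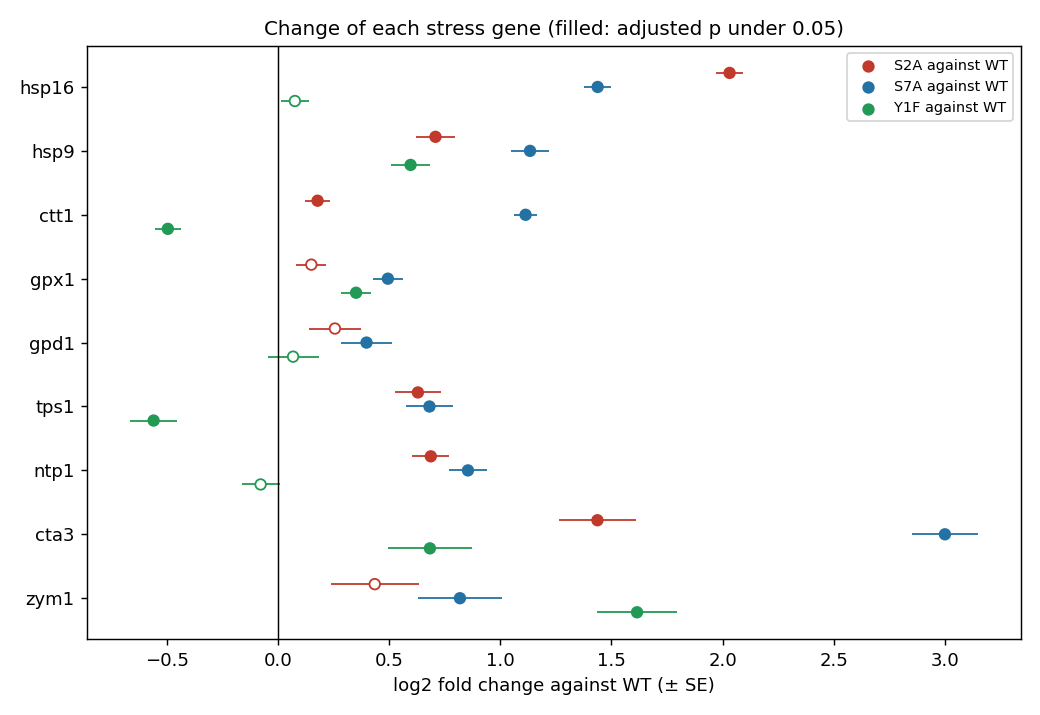
Log2 fold change of each gene in S2A, S7A and Y1F against WT, with bars of ± 1 SE; filled points had an adjusted p under 0.05 and open points did not. Every S7A point is filled and lies above 0, while in Y1F the points run from −0.56 for tps1 to 1.615 for zym1.

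The small stress proteins hsp16 and hsp9 followed different orders across the strains. hsp16, a small heat shock protein of the alpha-crystallin type, was at 59.5 and 53.2 CPM in the WT libraries, 239 and 221 in S2A, 149 and 156 in S7A, and 58.5 and 60.3 in Y1F. S2A was highest and S7A second, with no overlap between them, and Y1F overlapped WT. It rose 4.09-fold in S2A (2.03 ± 0.060, edgeR adjusted p = 2.81e-10) and 2.71-fold in S7A (1.44 ± 0.060, edgeR adjusted p = 4.39e-09), and S2A exceeded S7A by 0.59 ± 0.054 (edgeR adjusted p = 1.47e-06). In Y1F the change was 0.08 ± 0.064 (edgeR adjusted p = 0.375).

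hsp9, a small stress protein related to Hsp12 of budding yeast, stood at 110.8 and 122 CPM in WT, 204 and 177 in S2A, 253 and 258 in S7A, and 159 and 193 in Y1F. Every mutant library was above both WT libraries, and those of S2A and Y1F overlapped. It rose by 1.13 ± 0.087 in S7A (edgeR adjusted p = 8.99e-07), 0.71 ± 0.087 in S2A (edgeR adjusted p = 2.42e-05) and 0.60 ± 0.088 in Y1F (edgeR adjusted p = 0.000266). S7A was also above S2A, whose difference from S7A was −0.42 ± 0.083, whereas S2A and Y1F were not separated (0.11 ± 0.085, edgeR adjusted p = 0.292). Without Y1F replicate 2, S2A was above Y1F by 0.27 (adjusted p = 0.0247).

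The peroxide-removing enzymes were both higher in S7A and parted in Y1F. ctt1, the cytosolic catalase, was at 67.1 and 69.1 CPM in WT, 76.3 and 78.0 in S2A, 147 and 148 in S7A, and 51.5 and 45.8 in Y1F. The 4 strains did not overlap, and Y1F was the lowest. ctt1 rose 2.17-fold in S7A (1.11 ± 0.053, edgeR adjusted p = 1.59e-08) and fell to 0.710 of the WT level in Y1F (−0.49 ± 0.058, edgeR adjusted p = 4.36e-05). Its small rise in S2A (0.18 ± 0.055, edgeR adjusted p = 0.0149) lost its call when WT replicate 1 (0.16, adjusted p = 0.0671) was left out, when S2A replicate 2 was (0.16, adjusted p = 0.0695), and with DESeq2 (0.17, adjusted p = 0.0816).

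gpx1, a glutathione peroxidase, varied less, at 90.6 and 92.0 CPM in WT, 110.05 and 91.8 in S2A, 127 and 129.9 in S7A, and 115 and 118 in Y1F. It rose by 0.50 ± 0.067 in S7A (edgeR adjusted p = 9.21e-05) and 0.35 ± 0.068 in Y1F (edgeR adjusted p = 0.00178). In S2A 1 library lay between the WT libraries and the other above them, and the change was 0.15 ± 0.068 (edgeR adjusted p = 0.0768; 0.27, adjusted p = 0.00147, without S2A replicate 2, 0.013, adjusted p = 0.863, without S2A replicate 1, and 0.17, adjusted p = 0.0481, with scaling on protein-coding genes). Y1F was therefore higher than WT in one peroxidase gene and lower in the catalase gene.

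The trehalose genes tps1 and ntp1 rose in both serine mutants, and the glycerol gene gpd1 was called only in S7A. gpd1, the glycerol-3-phosphate dehydrogenase that makes glycerol under osmotic stress, was at 813 and 1019 CPM in WT, 1076 and 1112 in S2A, 1217 and 1197 in S7A, and 824 and 1095 in Y1F. The WT and Y1F libraries overlapped and were each spread widely. gpd1 was called higher in S7A only narrowly (0.40 ± 0.115, edgeR adjusted p = 0.0132): the call was lost without WT replicate 1 (0.25, adjusted p = 0.103), without S7A replicate 1 (0.39, adjusted p = 0.0566) and with DESeq2 (0.40, adjusted p = 0.0749). In S2A gpd1 had 0.26 ± 0.115 (edgeR adjusted p = 0.0758; adjusted p = 0.0308 with a replicate block, 0.0441 with only the S2A and WT libraries, 0.0239 without either Y1F library, 0.43, adjusted p = 0.00971, without WT replicate 2, while leaving out WT replicate 1 gave 0.11, adjusted p = 0.473) and in Y1F 0.07 ± 0.115 (edgeR adjusted p = 0.682).

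tps1, the trehalose-6-phosphate synthase, was at 209 and 273 CPM in WT, 395 and 350.5 in S2A, 387 and 386 in S7A, and 149.7 and 177 in Y1F. S2A and S7A overlapped and lay above WT, and both Y1F libraries lay below WT. tps1 rose 1.55-fold in S2A (0.63 ± 0.104, edgeR adjusted p = 0.000259) and 1.60-fold in S7A (0.68 ± 0.104, edgeR adjusted p = 0.000223), and fell to 0.679 of the WT level in Y1F (−0.56 ± 0.107, edgeR adjusted p = 0.00173; −0.35, adjusted p = 0.00977, without WT replicate 2).

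ntp1, the neutral trehalase that breaks trehalose down, was at 114 and 144 CPM in WT, 209 and 206 in S2A, 233 and 233 in S7A, and 114 and 129 in Y1F. It rose by 0.69 ± 0.084 in S2A (edgeR adjusted p = 2.25e-05) and 0.86 ± 0.084 in S7A (edgeR adjusted p = 7.85e-06). In Y1F it had −0.08 ± 0.086 (edgeR adjusted p = 0.52; −0.24, adjusted p = 0.018, without WT replicate 1). The genes for making and for breaking down trehalose thus both rose in S2A and in S7A. tpp1, the trehalose-6-phosphate phosphatase that completes synthesis, was also higher in S2A (0.38 ± 0.041, edgeR adjusted p = 7.15e-06) and had 0.09 in S7A (edgeR adjusted p = 0.0771).

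cta3, a P-type ATPase that pumps cations, had the largest change of the 9 genes in S7A, while in S2A hsp16 and in Y1F zym1 changed more. It was scarce in WT, with 65 and 51 counts (4.26 and 3.50 CPM), and stood at 11.2 and 9.75 CPM in S2A, 28.2 and 33.8 in S7A, and 6.68 and 5.95 in Y1F. The strains did not overlap, in the order WT, Y1F, S2A, S7A, and each step of that order was called. It rose 7.99-fold in S7A (3.00 ± 0.149, edgeR adjusted p = 2.23e-08), the change ranked 16 from the highest of the 6243 genes, and 2.71-fold in S2A (1.44 ± 0.172, edgeR adjusted p = 1.95e-05). The Y1F rise (0.68 ± 0.188, edgeR adjusted p = 0.0141) lost its call when WT replicate 2 was left out (0.55, adjusted p = 0.087) and when Y1F replicate 1 was (0.61, adjusted p = 0.0596).

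The cta3 locus holds an annotated RNA on the other strand. SPNCRNA.1374, a noncoding RNA whose annotated span lies wholly within the span of cta3, covers 76.5% of the gene. It was at 38.2 and 34.7 CPM in WT, 28.1 and 30.6 in S2A, 24.9 and 25.5 in S7A, and 36.4 and 31.4 in Y1F. It fell by 0.53 ± 0.087 on the log2 scale in S7A (edgeR adjusted p = 0.000349) and by 0.32 ± 0.086 in S2A (edgeR adjusted p = 0.0072; adjusted p = 0.0649 without WT replicate 1 and 0.0739 without S2A replicate 1), and had −0.12 in Y1F (edgeR adjusted p = 0.303). Across the strains cta3 was highest and SPNCRNA.1374 lowest in S7A. Libraries were made with a stranded kit, yet no source used here gives the strand option of the read counting, which leaves the assignment of reads to either strand uncertain.

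**Figure D3:**
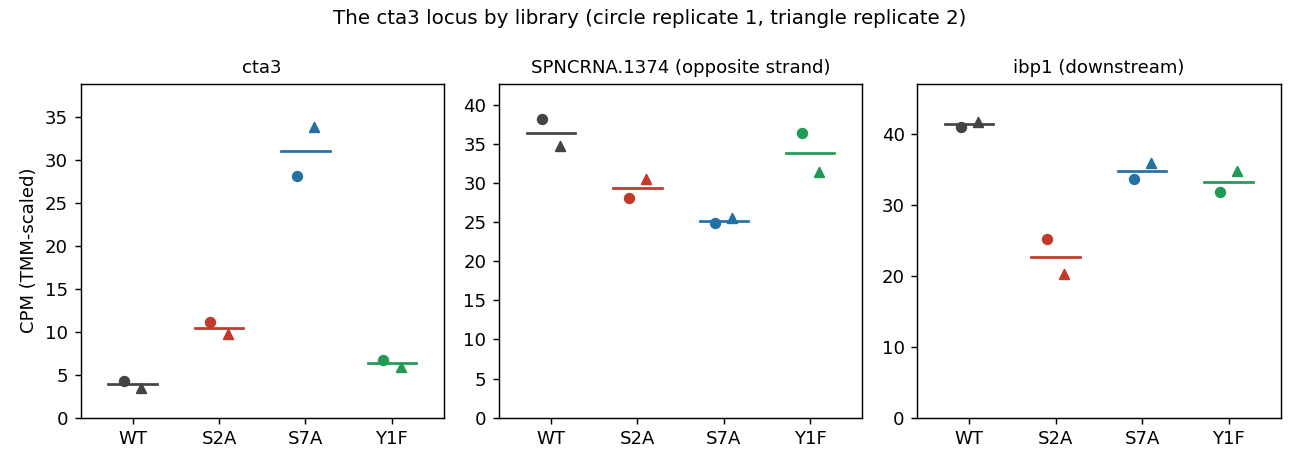
TMM-scaled CPM of cta3, of the noncoding RNA SPNCRNA.1374 on the opposite strand and of the downstream gene ibp1 in every library, on linear axes that start at 0 and differ between panels; circles are replicate 1, triangles replicate 2 and bars the mean of 2 libraries. cta3 is highest in S7A (28.2 and 33.8), where SPNCRNA.1374 is lowest (24.9 and 25.5).

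zym1, a metallothionein that binds zinc, was the one member with its highest level in Y1F. It was at 9.63 and 5.84 CPM in WT, 10.4 and 10.6 in S2A, 11.7 and 15.4 in S7A, and 24.2 and 23.4 in Y1F. All 6 mutant libraries were above both WT libraries, and both Y1F libraries were above all others. zym1 rose 3.06-fold in Y1F (1.615 ± 0.178, edgeR adjusted p = 2.76e-05), ranked 37 from the highest of all genes tested in that comparison. It also rose in S7A (0.82 ± 0.187, edgeR adjusted p = 0.00343), a call lost without S7A replicate 2 (0.60, adjusted p = 0.0525), and the value was 1.24 without WT replicate 1 and 0.51 without WT replicate 2. In S2A it had 0.44 ± 0.197 (edgeR adjusted p = 0.0778; 0.85, adjusted p = 0.00357, without WT replicate 1, while leaving out WT replicate 2 gave 0.12, adjusted p = 0.574).

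Between S7A and Y1F, of the 9 members 7 were lower in Y1F than in S7A, 1 higher (zym1, 0.80 ± 0.156, edgeR adjusted p = 0.00116) and 1 not called (gpx1, −0.14 ± 0.065, edgeR adjusted p = 0.0868), against 25.7% of all genes called higher, 23.0% lower and 48.7% either way. gpx1 was called lower in Y1F under 4 of the 15 alternatives, with an adjusted p of 0.00517 when only the S7A and Y1F libraries were fitted. The gaps were −2.315 ± 0.133 for cta3, −1.61 ± 0.054 for ctt1, −1.36 ± 0.059 for hsp16 and −1.24 ± 0.105 for tps1. The gpd1 difference (−0.33 ± 0.115, edgeR adjusted p = 0.0312) was not called without either S7A library (adjusted p = 0.106 and 0.0872), without Y1F replicate 1 (−0.14, adjusted p = 0.316) or with DESeq2 (adjusted p = 0.133), and was −0.55 without Y1F replicate 2.

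Between the serine mutants, 1 member was higher in S2A than in S7A and 4 were lower, against 28.3% of all genes called higher, 24.9% lower and 53.1% either way. hsp16 was higher in S2A. The 4 lower in S2A were cta3 (−1.56 ± 0.122), ctt1 (−0.935 ± 0.051), hsp9 (−0.42 ± 0.083) and gpx1 (−0.34 ± 0.065). The genes gpd1, tps1, ntp1 and zym1 were not called. Fitted on the S2A and S7A libraries alone, gpd1, ntp1 and zym1 were also called lower in S2A, which gave 8 members called in place of 5. The share of all genes called in that fit is not given here.

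Between S2A and Y1F, 5 members were higher in S2A and 2 lower, against 25.1% of all genes called higher, 23.7% lower and 48.9% either way. hsp16 was higher by 1.95 ± 0.058, tps1 by 1.19 ± 0.106, ntp1 by 0.77 ± 0.084, cta3 by 0.75 ± 0.152 and ctt1 by 0.67 ± 0.056. zym1 was lower in S2A by −1.18 ± 0.165. gpx1 was lower by −0.20 ± 0.066 (edgeR adjusted p = 0.0237), a call lost without S2A replicate 2 (−0.08, adjusted p = 0.232) or either Y1F library (adjusted p = 0.0559 and 0.11), and −0.33 without S2A replicate 1.

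Replicates of WT and of Y1F stood apart from each other in some of these genes. In WT the replicate 2 level was 1.25, 1.31 and 1.26 times that of replicate 1 for gpd1, tps1 and ntp1, and in Y1F it was 1.33, 1.18 and 1.13 times. atf1, which encodes the Sty1-regulated factor, had the ratios 1.37 and 1.31 in WT and Y1F. Chaperone genes outside the 9 had wider ratios: ssa1, an Hsp70, was at 36.5 and 83.1 CPM in WT and 46.5 and 81.9 in Y1F, and hsp104, a disaggregase, at 151 and 295 in WT and 200.3 and 323 in Y1F. In the serine mutants ssa1 was at 241 and 173 CPM (S2A) and 208 and 179 (S7A), and hsp104 at 524 and 391.7 and at 492 and 433. The part of this spread in the values of gpd1, tps1 and ntp1 was not tested beyond leaving out each library. hsp16 itself did not follow it: its replicate 2 to replicate 1 ratio was 0.895 in WT and 1.03 in Y1F. Nor did cta3 and zym1, with ratios of 0.823 and 0.606 in WT and 0.89 and 0.967 in Y1F. In WT and in Y1F alike, 6 of the 9 members were higher in replicate 2, with a median ratio of 1.03.

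ssa1 rose in S2A (1.805 ± 0.291, edgeR adjusted p = 0.000211) and S7A (1.70 ± 0.290, edgeR adjusted p = 0.000491), with ranges of 1.33 to 2.51 and 1.23 to 2.41 as each library was left out. hsp104 rose by 1.04 ± 0.255 in S2A and 1.053 ± 0.255 in S7A, and its S2A call was lost without S2A replicate 1 (0.82, adjusted p = 0.0503). The hsp104 values were 1.60 and 1.61 without WT replicate 2 and 0.64 and 0.66 without WT replicate 1. In Y1F neither was called, at 0.14 ± 0.309 for ssa1 and 0.24 ± 0.256 for hsp104, and both were called higher there without WT replicate 2 (0.855, adjusted p = 0.043, and 0.80, adjusted p = 0.0194). Of the 15 genes listed as heat shock factor targets and chaperones, 4 were higher and 0 lower in S2A, 3 and 0 in S7A, and 1 and 5 in Y1F, to be read against the all-gene shares given above. Their median changes were 0.06, 0.01 and −0.06. The Y1F falls included mas5, a DnaJ-type co-chaperone (−0.45 ± 0.053, edgeR adjusted p = 4.65e-05), and hsp3101, a member of the Hsp31 family (−0.81 ± 0.141).

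Of 17 genes of the Sty1 MAP kinase pathway, 4 were higher and 5 lower in S2A, 5 and 6 in S7A, and 4 and 4 in Y1F, with median changes of −0.05, −0.01 and −0.01. The all-gene shares were 28.8% higher and 26.6% lower in S2A, 23.1% and 24.3% in S7A, and 17.6% and 17.4% in Y1F, which are also the background of the list counts that follow. A list's share near these is no result about the list. The MAP kinase gene sty1 was at 194 and 211 CPM in WT and had −0.20 ± 0.054 in S2A (edgeR adjusted p = 0.00683; adjusted p = 0.0571 without WT replicate 2 and 0.0619 without S2A replicate 2). In S7A sty1 had −0.06 and in Y1F −0.03, neither called. The MAP kinase kinase gene wis1 fell by 0.18 ± 0.047 in S7A (edgeR adjusted p = 0.00655; 0.0746 without S7A replicate 1) and by 0.15 ± 0.047 in S2A (edgeR adjusted p = 0.0144; 0.0535 without WT replicate 1 and 0.104 without S2A replicate 2).

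ptc2, a PP2C phosphatase, was higher in S2A (0.39 ± 0.045) and lower in S7A (−0.33 ± 0.0465). pyp1, a tyrosine phosphatase that inactivates Sty1, fell by 0.53 ± 0.118 in Y1F (edgeR adjusted p = 0.00455; −0.33 without WT replicate 2). pyp2, a second such phosphatase, had −0.33 ± 0.109 in S7A (edgeR adjusted p = 0.0242), a call lost without WT replicate 1 (−0.23, adjusted p = 0.184), without either S7A library or with DESeq2. mak2, a histidine kinase of the peroxide-sensing branch, rose in S2A (0.38 ± 0.041), and mpr1, the phosphotransfer protein below it, rose in Y1F (0.34 ± 0.059).

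Of 11 stress transcription factors 5 were higher and 3 lower in S2A, 7 and 2 in S7A, and 3 and 4 in Y1F, with medians of 0.08, 0.25 and −0.03. atf1 was at 106 and 145 CPM in WT, 207 and 190.0 in S2A, 169 and 169.8 in S7A, and 94.6 and 124 in Y1F. It rose in S2A (0.66 ± 0.125, edgeR adjusted p = 0.000743) and in S7A (0.43 ± 0.125, edgeR adjusted p = 0.014), where the call was lost without WT replicate 1 (0.23, adjusted p = 0.113), without S7A replicate 2 (adjusted p = 0.0549) and with DESeq2 (adjusted p = 0.098), and the value was 0.67 without WT replicate 2. In Y1F atf1 had −0.19 (edgeR adjusted p = 0.272).

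Its partner gene pcr1 had −0.08 in S2A and 0.22 in S7A, neither called, and 0.27 ± 0.098 in Y1F (edgeR adjusted p = 0.0476), a call that 11 of the 15 alternatives removed, with values of 0.10 and 0.46 without WT replicate 1 and 2. Leaving out WT replicate 2 gave pcr1 a called value of 0.40 in S7A (adjusted p = 0.00435), and leaving out WT replicate 1 gave 0.06 there (adjusted p = 0.615) and a called −0.25 in S2A (adjusted p = 0.0401). hsf1, the heat shock factor gene, rose in S7A (0.25 ± 0.055, edgeR adjusted p = 0.0025) and fell in Y1F (−0.27 ± 0.056, edgeR adjusted p = 0.00327). In S2A it had 0.18 ± 0.055 (edgeR adjusted p = 0.0143; 0.0881 without WT replicate 2, 0.0797 without S2A replicate 1 and 0.0518 with DESeq2). rst2 rose in S7A (0.25 ± 0.057; 0.16 without WT replicate 1) and had 0.18 ± 0.058 in Y1F (edgeR adjusted p = 0.0309; 0.297 without WT replicate 1, where the value was 0.08, 0.198 without Y1F replicate 2 and 0.1 with DESeq2, and a value of 0.28 without WT replicate 2). atf31, another bZIP factor gene, went from 6.74 and 7.005 CPM in WT to 30.2 and 31.1 in S2A (2.15 ± 0.111, edgeR adjusted p = 1.41e-08) and 17.3 and 18.1 in Y1F (1.37 ± 0.117). In S7A it was lower, at 4.73 and 5.78 CPM (−0.37 ± 0.139, edgeR adjusted p = 0.044). prr1 rose in S7A (0.23 ± 0.042) and fell in Y1F (−0.22 ± 0.043) and S2A (−0.14 ± 0.0425, edgeR adjusted p = 0.0125; 0.0525 without S2A replicate 1). hsr1, a zinc-finger factor of the stress response, fell in S7A (−0.50 ± 0.064) and Y1F (−0.53 ± 0.064).

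pap1, which encodes the oxidative stress factor, rose in S7A (0.39 ± 0.056, edgeR adjusted p = 0.000162) and in S2A (0.20 ± 0.057, edgeR adjusted p = 0.00892; 0.11, adjusted p = 0.0875, without WT replicate 1, and 0.31 without WT replicate 2). In Y1F it had −0.18 ± 0.058 (edgeR adjusted p = 0.0273), a call lost without WT replicate 2 (−0.08, adjusted p = 0.229) or either Y1F library, and −0.29 without WT replicate 1. Of the 4 genes listed as Pap1-dependent, 2 were higher and 1 lower in S2A, 3 higher and 0 lower in S7A, and 0 higher and 4 lower in Y1F, with medians of 0.35, 0.75 and −0.41. Another entry, apt1, was taken off this list after its values were seen, because it is the adenine phosphoribosyltransferase gene and shares only an older name with obr1; it was lower in all 3 mutants.

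The largest Y1F change among them was that of obr1, which encodes a flavodoxin-like protein, at 352 and 345 CPM in WT, 548.5 and 514 in S2A, 632 and 622 in S7A, and 129 and 127 in Y1F. Each mutant lay apart from WT, and obr1 rose by 0.61 ± 0.046 in S2A and 0.85 ± 0.046 in S7A and fell by 1.45 ± 0.048 in Y1F (edgeR adjusted p = 3.69e-07, 4.24e-08 and 5.01e-10). bfr1, a drug efflux pump of the ABC family, rose by 0.58 ± 0.099 in S2A and 0.94 ± 0.099 in S7A and fell by 0.45 ± 0.100 in Y1F. The others were caf5 and pmd1. caf5 was higher in S7A (0.65 ± 0.119) and had −0.36 ± 0.130 in Y1F (edgeR adjusted p = 0.048, lost under 8 of the 15 alternatives) and −0.38 ± 0.130 in S2A (edgeR adjusted p = 0.0255; 0.144 without S2A replicate 2, 0.0542 without WT replicate 1 and 0.0923 without WT replicate 2). pmd1, a second efflux pump, fell in Y1F (−0.315 ± 0.059) and was not called in S2A or S7A (0.12 and −0.11).

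**Figure D4:**
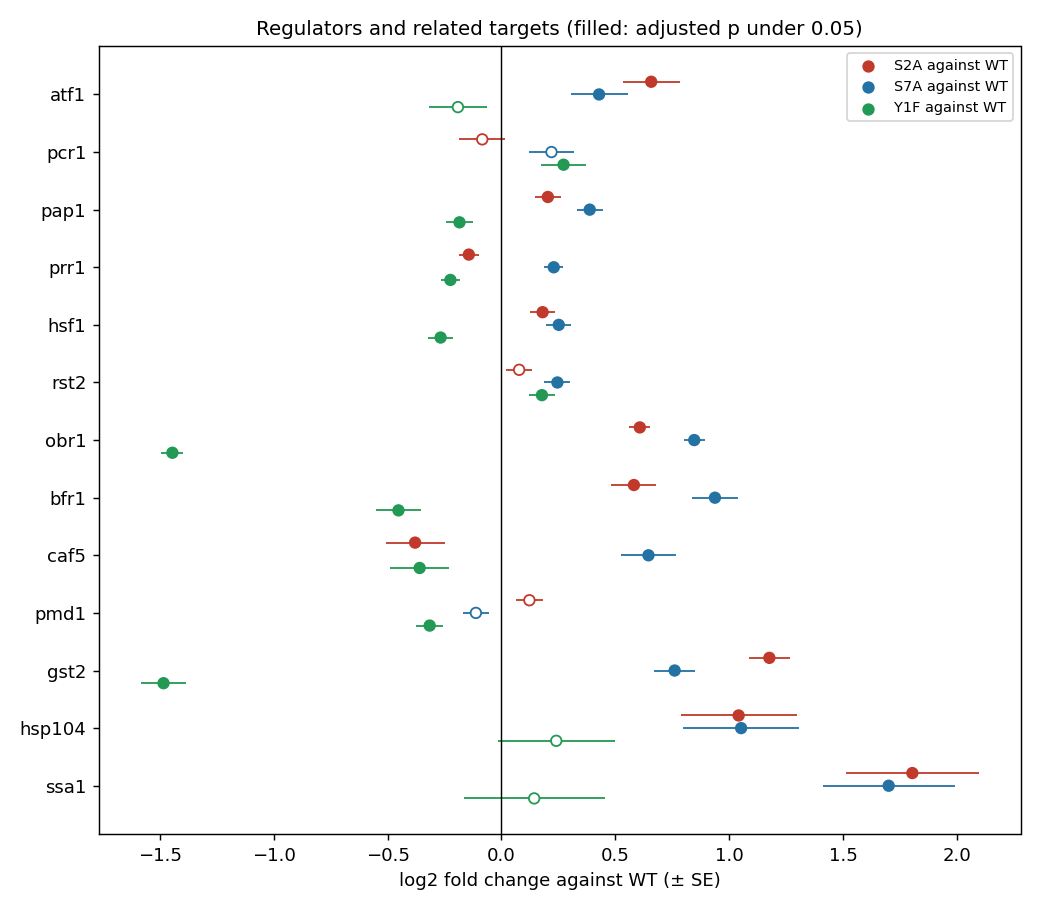
Log2 fold change against WT, with bars of ± 1 SE, of regulator genes (atf1 to rst2), the Pap1-dependent list (obr1 to pmd1), gst2 and 2 chaperone genes in S2A, S7A and Y1F; filled points had an adjusted p under 0.05. The Y1F points of obr1 (−1.45) and gst2 (−1.48) lie on the other side of 0 from those of S2A and S7A.

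Among 18 antioxidant and glutathione genes, 5 were higher and 6 lower in S2A, 8 and 3 in S7A, and 4 and 7 in Y1F, with medians of 0.06, 0.13 and −0.06. gst2, a glutathione S-transferase, was at 193 and 168 CPM in WT, 447 and 368 in S2A, 319.9 and 292 in S7A, and 69.2 and 60.5 in Y1F. It rose by 1.18 ± 0.0915 in S2A and 0.76 ± 0.091 in S7A and fell by 1.48 ± 0.100 in Y1F (edgeR adjusted p = 3.61e-07), the same directions as obr1. tpx1, the main peroxiredoxin, went the other way in Y1F, rising by 0.505 ± 0.058 from 726 and 651 CPM to 995 and 960.0. gst1, a low transcript at 1.77 and 2.54 CPM in WT, fell in S2A to 0.535 and 0.338 (−2.23 ± 0.366). In S7A gst1 had −1.07 ± 0.302 (edgeR adjusted p = 0.0115; 0.0716 without S7A replicate 1, 0.109 without WT replicate 2 and 0.0768 with DESeq2).

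Trehalose, glycerol and carbohydrate genes outside the 9 were called in both directions. Of 11, 2 were higher and 2 lower in S2A, 4 and 1 in S7A, and 1 and 4 in Y1F, with medians of 0.09, 0.09 and −0.15. dak2, a dihydroxyacetone kinase of glycerol use, fell in each mutant (−0.76 ± 0.134 in S2A, −1.13 ± 0.137 in S7A and −0.85 ± 0.135 in Y1F). Phosphoglucomutase pgm1 rose in S7A (0.455 ± 0.053), and the glycerol-3-phosphate dehydrogenase of mitochondria, gut2, had −0.31 in Y1F (edgeR adjusted p = 0.0263; 0.102 without WT replicate 1, 0.307 without Y1F replicate 2, where the value was −0.18, and 0.0859 with DESeq2).

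Of the 18 nearest annotated neighbours of the 9 genes, 12 were in the count table and 7 passed the filter on low counts. scd2, downstream of zym1, was at 55.3 and 55.8 CPM in WT and had 0.011, 0.023 and 0.045 in S2A, S7A and Y1F, none called. ibp1, a phosphatase gene downstream of cta3, fell by 0.85 ± 0.0935 in S2A (edgeR adjusted p = 9.41e-06). It had −0.25 in S7A (edgeR adjusted p = 0.0359), lost with DESeq2 or without any 1 of the 4 S7A and WT libraries, and −0.31 in Y1F (edgeR adjusted p = 0.0192; 0.0595 without WT replicate 2 and 0.104 without Y1F replicate 1). ski7, upstream of hsp9, had 0.24 ± 0.061 in S2A and 0.23 ± 0.0605 in S7A (edgeR adjusted p = 0.0048 and 0.00722; in S7A 0.0753 without S7A replicate 1 and 0.0562 without WT replicate 1), beside 0.71 and 1.13 for hsp9. atg38, downstream of ntp1, was higher by 0.28 ± 0.054 in S2A and 0.26 ± 0.053 in S7A, beside 0.69 and 0.86 for ntp1, and had 0.175 in Y1F (edgeR adjusted p = 0.0251, lost under 5 of the 15 alternatives). zip3, on the other side of hsp9, and cox14, upstream of ctt1, were not called in any mutant, nor was SPNCRNA.1549 upstream of gpx1.

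Annotated noncoding RNAs lie on the opposite strand of 5 members, 14 RNAs in all, of which 2 were in the count table. The protein-coding gene gem7 overlaps 3.4% of gpx1 on the opposite strand and had 0.41 in S2A (edgeR adjusted p = 0.0156, lost under 3 of the 15 alternatives). Besides SPNCRNA.1374, the count table held SPNCRNA.1327, which covers 10.8% of ntp1 and stood at 1.11 and 2.06 CPM in WT, 1.90 and 1.69 in S2A, 2.58 and 2.75 in S7A, and 1.32 and 1.20 in Y1F. It had 0.76 in S7A (edgeR adjusted p = 0.0393), a call lost under 8 of the 15 alternatives and with values of 0.38 and 1.26 without WT replicate 1 and 2, and was not called in S2A or Y1F. dbl4, which meets tps1 on the same strand, fell in S7A (−0.54 ± 0.0625) and rose in Y1F (0.50 ± 0.059), opposite to tps1 in both. SPNCRNA.1657, which meets gpd1 on the same strand, held 4 and 8 counts in WT. It rose in S2A (1.68 ± 0.432, edgeR adjusted p = 0.00546), a call lost without WT replicate 1 (1.24), and had −0.95 in S7A, not called.

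For each member whose strain means spanned at least 2-fold, the genes with the most similar profile were sought among 527 others with the same range and a mean of at least 5 CPM. Likeness was Pearson's r of log2(CPM + 0.5) over the 8 libraries, which are 4 strains with replicates, so these values describe the strain pattern and carry no test. hsp16 was closest to meu27 (0.993), SPNCRNA.875 (0.991) and SPCPB1C11.02 (0.979). meu27, a meiotically upregulated gene, was at 1.11 and 1.03 CPM in WT, 19.0 and 17.5 in S2A, 9.28 and 8.04 in S7A, and 1.62 and 1.91 in Y1F.

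The S7A-high members pointed to other genes. cta3 was closest to SPCC1235.01 (0.973), the glycerophosphodiester transporter gene tgp1 (0.970) and SPBC19C7.04c (0.967), and ctt1 to the acid phosphatase gene pho1 (0.979), fun14 (0.963) and the hexose transporter gene ght2 (0.956). hsp9 was closest to SPCC1235.01 (0.966), SPBC19C7.04c (0.946) and SPNCRNA.727 (0.942). tps1, low in Y1F, was closest to SPAC9E9.02 (0.989), cmt2 (0.986) and SPBP8B7.32 (0.983). zym1 had no equally close partner: its nearest were urg1 (0.825), urg2 (0.804) and SPNCRNA.641 (0.799). For gpx1, gpd1 and ntp1 the strain means spanned 1.41-, 1.32- and 1.92-fold, below the range required.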

How the data were processed

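Total RNA was depleted of ribosomal RNA, made into stranded libraries and sequenced from both ends, per the labels' protocols. The deposited values are the authors' raw counts per gene ID. HISAT2, featureCounts, StringTie and DESeq2, as well as deepTools and build ASM294v2, are named per the submitters' processing notes; versions and the strand option were not found in any source used here. Totals were 13391705 to 23081870 per library. RefSeq's annotation (ASM294v3, another build) matched 6797 of 7000 IDs and gave only names, classes, overlaps and neighbours.

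filterByExpr (with a count of 10 and a total of 15 as minimums) removed low genes, and counts were scaled by TMM and fitted in edgeR 4.0.16 (R 4.3.3) with 1 mean per strain over all 8 libraries, leaving 4 residual degrees of freedom. Each SE was computed as |log2 fold change|/√F. The steps were also run on counts simulated with the same dispersion for every gene. That setting differs from these libraries, so the run does not give their error rates. Alternatives, set out in the closing section, included DESeq2 1.42.0. Figures used matplotlib 3.10.9.

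The members and gene lists were chosen with earlier results of these data known. Named genes were the 9 members, rpb1, sty1, wis1, atf1, pcr1, pap1, hsf1 and rst2, up to 2 called genes per list and mutant with the largest change (mean of at least 1 CPM), neighbours and opposite-strand RNAs of members, and the 3 genes most like a member. prr1, caf5, pmd1, apt1, dbl4, gem7 and SPNCRNA.1657, and second comparisons of a named gene, were added after their values were seen. One of 107 symbols outside the 9 members, zip8, was not matched and is left out, and apt1, which was listed in error, is not counted among the Pap1-dependent genes.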

Additional observations from a re-analysis of the deposited data

Results flagged for a closer look

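Members called higher than WT in one mutant and lower in another were listed where the direct test between those mutants was also called. That call was part of the rule, so the direct tests below add no separate support. ctt1 was higher than WT in S2A and S7A and lower in Y1F, but its S2A call against WT was lost under 3 of the 15 alternatives. For ctt1, S2A exceeded Y1F by 0.67 ± 0.056 (edgeR adjusted p = 1.05e-06), and Y1F differed from S7A by −1.61 ± 0.054 (edgeR adjusted p = 3.49e-10), with every library in the same direction. tps1 had the same pattern, with 1.19 ± 0.106 between S2A and Y1F (edgeR adjusted p = 1.88e-06) and −1.24 ± 0.105 between Y1F and S7A (edgeR adjusted p = 1.36e-06). These 4 differences between mutants kept their direction and call under all 15 alternatives.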

How the results depend on the processing

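Of 810 values of the 9 members (54 tests, 15 alternatives), 763 kept their direction and side of the threshold, 16 lost the call, 23 gained one and 8 changed sign, none of the 8 called in the full fit. Several alternatives left out a library of a strain not compared, which can move a log2 fold change only a little. The 763 is therefore no measure of how firm the calls are. The number of members called stayed within 6 to 7 (S2A), 8 to 9 (S7A) and 5 to 7 (Y1F against WT), 5 to 7 (S2A against S7A), 6 to 8 (S2A against Y1F) and 7 to 9 (Y1F against S7A) as each library was left out. With DESeq2 the counts were 5, 8, 6, 5, 7 and 7 in that order. With only the S2A and S7A libraries fitted 8 members were called between them, where fewer samples set the spread. The shares of all genes called under these alternatives are not given beside these counts. A changed count is therefore no result about the members. Listed pathway genes called were 57, 60 and 54 in S2A, S7A and Y1F, with ranges of 49 to 56, 43 to 60 and 33 to 54 as libraries were left out. These counts include apt1, the entry taken off the Pap1 list, which was called lower in all 3. In Y1F 20 of the listed genes were higher and 34 lower, beside 17.6% and 17.4% of all genes. With DESeq2 the counts were 10 and 31, and the all-gene shares under DESeq2 are not given here. All genes called in Y1F fell from 2186 to 1203 without Y1F replicate 2. Other scalings moved the median of all genes against WT by at most 0.023.

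Replicate numbers are shared between strains, but deviations of same-numbered libraries correlated from −0.183 to 0.319 over the 6 pairs of strains, so the number was not taken to pair them. With a replicate block 7, 9 and 6 members were called in S2A, S7A and Y1F against WT, and 5, 7 and 8 in S2A against S7A, S2A against Y1F and Y1F against S7A; gpd1 in S2A was the 1 member call it added. Listed pathway genes called were then 56, 57 and 52 of 106 tested. The shares of all genes called with the block are not given here.

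Some uncalled values changed sign as libraries were left out, and the cause was not tested. Their ranges in Y1F against WT were 0.00 to 0.155 (hsp16), −0.153 to 0.258 (gpd1), −0.24 to 0.098 (ntp1), −0.411 to 0.053 (atf1), −0.099 to 0.026 (sty1), −0.166 to 0.80 (hsp104), −0.357 to 0.855 (ssa1), −0.727 to 0.162 (SPNCRNA.1327) and −0.126 to 0.048 (zip3). In S2A against WT they were −0.246 to 0.098 (pcr1), −0.015 to 0.179 (rst2), −0.011 to 0.030 (scd2), −0.118 to 0.046 (zip3) and −0.185 to 0.695 (SPNCRNA.1327). In S7A against WT they were −0.068 to 0.009 (cox14) and −0.006 to 0.155 (zip3). Between mutants they were −0.002 to 0.408 (gpd1) and −0.017 to 0.266 (hsp9) in S2A against Y1F, and −0.145 to 0.020 (tps1) in S2A against S7A. With Spearman's rho, 8 likeness values moved, to between 0.738 and 0.929.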

Other observations

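pma2, a second plasma membrane proton ATPase, was at 0.327 and 0.343 CPM in WT, 1.90 and 1.76 in S2A, 4.43 and 3.42 in S7A, and 0.220 and 0.222 in Y1F. It rose in S7A (3.51 ± 0.328, edgeR adjusted p = 5.44e-06) and in S2A (2.43 ± 0.383, edgeR adjusted p = 0.00018). The WT libraries held only 5 and 5 counts of pma2 and the Y1F libraries 3 and 5, so the size of these rises is uncertain. Of 14 tested cation and metal transport genes, 4 were higher and 4 lower in S2A, 4 and 4 in S7A, and 2 and 2 in Y1F, with medians of −0.04, 0.02 and −0.01. The zinc transporter gene zrt1 fell in each mutant, by −0.675, −0.57 and −0.31 in S2A, S7A and Y1F, while the zinc-binding zym1 had its largest rise in Y1F. hmt2 had −0.19 ± 0.050 in Y1F (edgeR adjusted p = 0.0111; 0.067 without WT replicate 2 and 0.0816 without Y1F replicate 1). nhe1, the sodium-proton antiporter gene, fell in S7A (−0.68 ± 0.065), where cta3 was highest.

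Another list held 15 genes linked to stress, including regulators such as csx1 that need not be stress-induced themselves. Of these 15, 6 were higher and 3 lower in S2A, 7 and 2 in S7A, and 5 and 3 in Y1F. Their medians were 0.17, 0.04 and 0.08. lsd90 rose in S2A (1.26 ± 0.164) and S7A (1.01 ± 0.165), and sib1, the ferrichrome synthetase gene, in S2A (0.87 ± 0.0515). rds1 fell in S7A (−0.71 ± 0.113) and Y1F (−0.50 ± 0.112) and rose in S2A (0.48 ± 0.107). In Y1F csx1, whose RNA-binding protein acts on atf1 mRNA under oxidative stress, fell by 0.52 ± 0.057, and atd3 rose by 0.70 ± 0.112.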
